A study of Sus scrofa with 30 samples.

Results

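The 130 genes described here were lower in pig neonatal islet cell clusters matured with fetuin-A and higher in clusters matured with the TGF-beta receptor inhibitor SB431542 (SB) than in clusters matured in the standard medium. They were chosen by these data themselves, from 25880 genes in the count table. Counts were expressed as CPM, the count divided by the library's total count and multiplied by 1000000, and the ratio of 2 groups was taken between their mean CPM over 4 libraries after 0.5 was added to each mean. A gene was selected on a level at least 1.5-fold lower in Fet-A/day 10 than in HSA/day 10 together with a level at least 1.5-fold higher in HSA + SB/day 10 than in HSA/day 10, provided that its highest group mean reached 1 CPM, which 13860 genes did. Because these values made the selection, they are given as a description and carry no test.

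Clusters of islet cells from the pancreas of neonatal piglets were kept in maintenance medium and then matured in serum-free medium. RNA of 24 libraries was sequenced, 4 in each of 6 groups, to compare immature clusters and clusters matured under different additions. HSA/day 6 held immature clusters at culture day 6 with human serum albumin (HSA), and the other groups were collected at culture day 10. HSA/day 10 was matured with HSA alone, HSA + SB/day 10 with HSA and SB, HSA + LDN/day 10 with HSA and an addition that the labels name only as LDN, HSA + SB + LDN/day 10 with HSA and both additions, and in Fet-A/day 10 human fetuin-A took the place of HSA. The Fet-A/day 10 group therefore differed from HSA/day 10 in albumin as well as in fetuin-A. The series states that 4 independent islet preparations were used, and the study's methods give piglets of different ages, but the labels do not tie a library to a preparation or an age. The clusters were a mixture of endocrine and other pancreatic cells. Total counts ran from 18883734 to 24346119 per library. In all values below, the 4 libraries of a group are listed as replicates 1 to 4, numbers which follow accession order and were not used to pair libraries. Libraries of the same number shared extremes for some members, as given below. Whether they share a preparation was not tested.

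Fetuin-A is a glycoprotein that the liver secretes into plasma, and it can bind members of the TGF-beta family. TGF-beta ligands act through paired receptor kinases that phosphorylate the transcription factors SMAD2 and SMAD3, and SB blocks the kinase of the receptors that do so. The pathway is known for promoting matrix production by mesenchymal cells, and islets hold besides endocrine cells a dense capillary bed with endothelial cells and pericytes, while acinar and duct cells surround them in the pancreas.

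As means over the 24 libraries, 58 of the 130 members were below 10 CPM and 20 at or above 100 CPM. The median log2 ratio of the 130 members was -0.95 for fetuin-A (from -4.59 to -0.59) and 1.01 for SB (from 0.59 to 3.48). Of 1744 genes past the fetuin-A ratio, members made up 7.45%, and of 469 genes past the SB ratio they made up 27.7%. Both ratios used the same HSA/day 10 libraries, so a low or high value there moved both. HES4 lay just inside the fetuin-A threshold at -0.59 and LYPD2 just outside it at -0.58, while SQOR lay just inside the SB threshold at 0.59 and CDCA7 just outside it at 0.58. C1QTNF7, with a highest group mean of 2.12 CPM, was the named member nearest to the minimum level. With 1 library left out in turn, 53 of the 130 members met the rule in all 12 selections. The members lost were most numerous without an HSA/day 10 library, at 36, 23, 31 and 33 for replicates 1 to 4 of that group.

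Together the 130 members took 3.37% ± 1.51 of all counts in HSA/day 6 (SD, n = 4) and 0.924% ± 0.603 in HSA/day 10. Their share was 0.296% ± 0.138 in Fet-A/day 10 and 1.98% ± 0.752 in HSA + SB/day 10. In HSA + LDN/day 10 it was 1.07% ± 0.525, and in HSA + SB + LDN/day 10 it was 2.29% ± 0.920. A few abundant genes made up much of these shares. In HSA/day 6 the members summed to 33731 CPM. There CEL averaged 5452 CPM and ENSSSCG00000023012, ENSSSCG00000031177 and ENSSSCG00000037620, which have no symbol, 8895, 4821 and 4508 CPM. The median member had a mean of 12.1 CPM over all libraries. The group mean was highest in HSA + SB/day 10 for 53 members, in HSA + SB + LDN/day 10 for 43 and in HSA/day 6 for 34. It was lowest in Fet-A/day 10 for 125 members and in HSA/day 6 for 5. In 91 of the 130 members the mean with SB lay above that of the immature clusters. The members were sorted by hand, after they were known, into 6 roles by what their products do: 9 of exocrine cells, 11 liver and plasma products, 14 in lipid and metabolite handling, 10 endothelial, 12 mural and mesenchymal, and 9 of antigen presentation and leucocytes. Another 39 named members and 26 without a symbol stood outside these roles.

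The islet label was met by hormone genes, which are not members. In HSA/day 10 the mean was 2596 CPM for INS, 19745 CPM for GCG and 2653 CPM for SST. In the same libraries the duct gene KRT7 averaged 676 CPM, the collagen gene COL1A1 1242 CPM, the endothelial gene PECAM1 178 CPM and the leucocyte gene PTPRC 4.14 CPM, so the clusters also held RNA typical of ducts, mesenchyme and vessels. Among acinar markers CPA1 averaged 2771 CPM while PNLIP was near 0, at 0.0720 CPM. In bulk RNA of this kind, fewer cells of a type and less RNA per cell cannot be told apart.

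The comparison of HSA + SB + LDN/day 10 with HSA + LDN/day 10 asked whether SB moved the members in libraries outside the rule's ratios. Only the rule's minimum level drew on these libraries, as on those of all 6 groups. All 130 members passed the filter on low counts there, and 128 of them had a positive log2 fold change, against 50.4% of the 14842 genes tested. The 130 members had a median log2 fold change of 0.97 (from -0.29 to 2.90), where the median of all genes was 0.00. In edgeR's quasi-likelihood test 12 members rose at an adjusted p below 0.05, which is 9.23% of the members beside 0.532% of all genes tested. These were GPIHBP1, CPAMD8, ARC, BCAS1, LPL, EBF1, PEAR1, AFP, PRND and FHL5, with ENSSSCG00000017181 and ENSSSCG00000039847, which have no symbol. The count of members that fell was 0 in edgeR, 0 at an unadjusted p below 0.05 and 0 in DESeq2. The share of all genes called lower was not tallied, so these counts of 0 stand without a background share. At an unadjusted p below 0.05, 64 members were higher, while 13.7% of all genes passed that level in either direction. In 30 members (23.1%) each of the 4 libraries with SB and LDN lay above each of the 4 with LDN, as in 4.33% of all genes. With a log2 fold change above 1 also required, 9 members were called beside 0.243% of all genes. The HSA + LDN/day 10 libraries were separate from HSA/day 10, but they may have come from the same islet preparations.

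The number of members called higher depended on how the spread between libraries was modelled. It was 102 (78.5%) with 3 surrogate variables, where 7.05% of all genes were called, 27 in DESeq2 (1.17% of all genes) and 6 when the libraries of these 2 groups alone were fitted (0.428% of all genes). Among the 53 members that met the rule in all 12 selections 7 were called in the main fit. The shares of all genes called higher also stand beside the counts by role below. They were 0.532% in edgeR, 1.17% in DESeq2 and 7.05% with 3 surrogate variables. Leaving out HSA + LDN/day 10 replicate 1, 2, 3 or 4 gave 4, 3, 3 and 1 called members, and leaving out HSA + SB + LDN/day 10 replicate 1 or 3 gave 4 and 3. GPIHBP1 was called in every one of these fits.

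**Figure D1:**
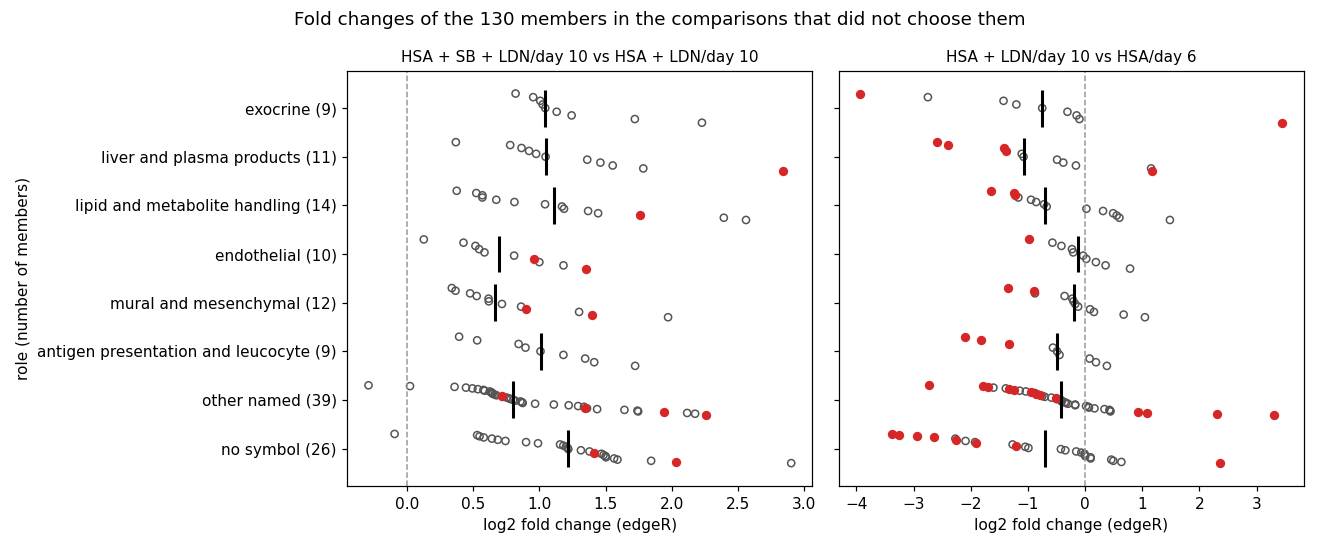
Each circle is 1 of the 130 members, placed on the x axis by its edgeR log2 fold change in HSA + SB + LDN/day 10 against HSA + LDN/day 10 (left) and HSA + LDN/day 10 against HSA/day 6 (right), with roles on the y axis. Red circles passed an adjusted p of 0.05, short black lines are medians of a role, the dashed line marks 0, and on the left 128 of the 130 circles lie above 0.

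The exocrine members were the digestive enzyme genes CEL, CLPS, PRSS2 and RNASE1, the acinar transcription factor gene RBPJL, the secretory protein genes SERPINI2 and ERP27, the motor protein gene MYO5C and GATM, whose enzyme starts creatine synthesis. Their summed level was 3014 ± 2816 CPM in HSA/day 10 (SD, n = 4), 518 ± 332 CPM in Fet-A/day 10 and 6112 ± 3118 CPM in HSA + SB/day 10. CEL encodes the bile salt-activated lipase of pancreatic juice. CEL stood at 8789, 5962, 4925 and 2131 CPM in HSA/day 6 and at 5534, 2177, 1156 and 345 CPM in HSA/day 10. With fetuin-A, CEL was measured at 623, 343, 283 and 32.9 CPM, and with SB at 7014, 4718, 4547 and 1061 CPM. CEL had 5236, 2341, 2111 and 520.3 CPM in HSA + LDN/day 10 and 8084, 5485, 4723 and 1125 CPM in HSA + SB + LDN/day 10. The highest Fet-A/day 10 value was above the lowest of HSA/day 10, and replicate 4 was the lowest library of each of the 6 groups. The log2 fold change of CEL for SB in the presence of LDN was 0.95 ± 0.84 (SE) with an adjusted p of 0.685, and the 2 groups overlapped.

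PRSS2 encodes a trypsinogen, of a family whose near-identical copies make the assignment of reads uncertain. PRSS2 stood at 22.1, 16.9, 41.98 and 21.6 CPM in HSA/day 6 and at 400.4, 91.2, 169.5 and 76.5 CPM in HSA/day 10. With fetuin-A, PRSS2 was measured at 5.74, 2.34, 15.7 and 5.06 CPM, and with SB at 506, 207, 805 and 352 CPM. PRSS2 had 476, 89.4, 491 and 124 CPM in HSA + LDN/day 10 and 864, 308, 1204 and 382 CPM in HSA + SB + LDN/day 10. Each Fet-A/day 10 value of PRSS2 lay below each value of HSA/day 10 and of HSA/day 6, which chose it in part, and its log2 ratio for fetuin-A, -4.59, was the lowest of the members. CLPS, which encodes the cofactor of pancreatic lipase, differed from PRSS2 in time. CLPS stood at 2078, 1408, 1586 and 904 CPM in HSA/day 6 and at 149, 76.3, 53.6 and 24.1 CPM in HSA/day 10. With fetuin-A, CLPS was measured at 63.9, 37.4, 29.9 and 9.21 CPM, and with SB at 203, 181, 177 and 59.7 CPM. CLPS had 182, 87.8, 110.3 and 35.9 CPM in HSA + LDN/day 10 and 309, 194, 257 and 61.3 CPM in HSA + SB + LDN/day 10. The 4 immature libraries were far above all 20 others for CLPS, whereas for PRSS2 they were below the 16 libraries of day 10 with HSA. RBPJL encodes the DNA-binding subunit of the acinar PTF1 complex. RBPJL had 52.4, 22.5, 19.4 and 6.46 CPM in HSA + LDN/day 10 and 97.6, 58.3, 46.5 and 14.6 CPM in HSA + SB + LDN/day 10, which overlapped (log2 fold change 1.13 ± 0.74 (SE)).

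RNASE1, the secreted pancreatic ribonuclease, spread widely within groups. RNASE1 stood at 344, 133, 147 and 5.87 CPM in HSA/day 6 and at 30.9, 26.7, 11.5 and 0.157 CPM in HSA/day 10. With fetuin-A, RNASE1 was measured at 10.4, 4.14, 2.603 and 0.658 CPM, and with SB at 168, 107, 73.2 and 1.68 CPM. RNASE1 had 37.3, 39.4, 24.7 and 0.688 CPM in HSA + LDN/day 10 and 205, 159, 102 and 2.03 CPM in HSA + SB + LDN/day 10. In each of the 6 groups replicate 4 was the lowest for RNASE1 and the other 3 libraries were at least several-fold higher. GATM had 627, 304, 294 and 109.6 CPM with LDN and 1522, 1164, 1212 and 427 CPM with SB and LDN, and MYO5C, which moves secretory granules, had 165, 111, 108 and 56.5 and 269.8, 218, 181 and 96.1 CPM. ERP27, of the endoplasmic reticulum, had 167, 86.9, 51.9 and 19.4 and 279.8, 198, 119.5 and 53.3 CPM in the same groups. All 3 overlapped between the groups. Of the 9 exocrine members 0 were called in edgeR, 2 had an unadjusted p below 0.05, 0 were called in DESeq2 and all 9 with 3 surrogate variables, and all 9 had positive log2 fold changes (0.82 to 2.23, median 1.04). Within each of the 6 groups, the library with the highest CEL was also the highest for 7 to 9 of the 9 exocrine members, and the library with the lowest CEL was the lowest for 8 or 9. The part of this shared spread in the missing calls was not tested, and no fit blocked on the replicate number was run.

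**Figure D2:**
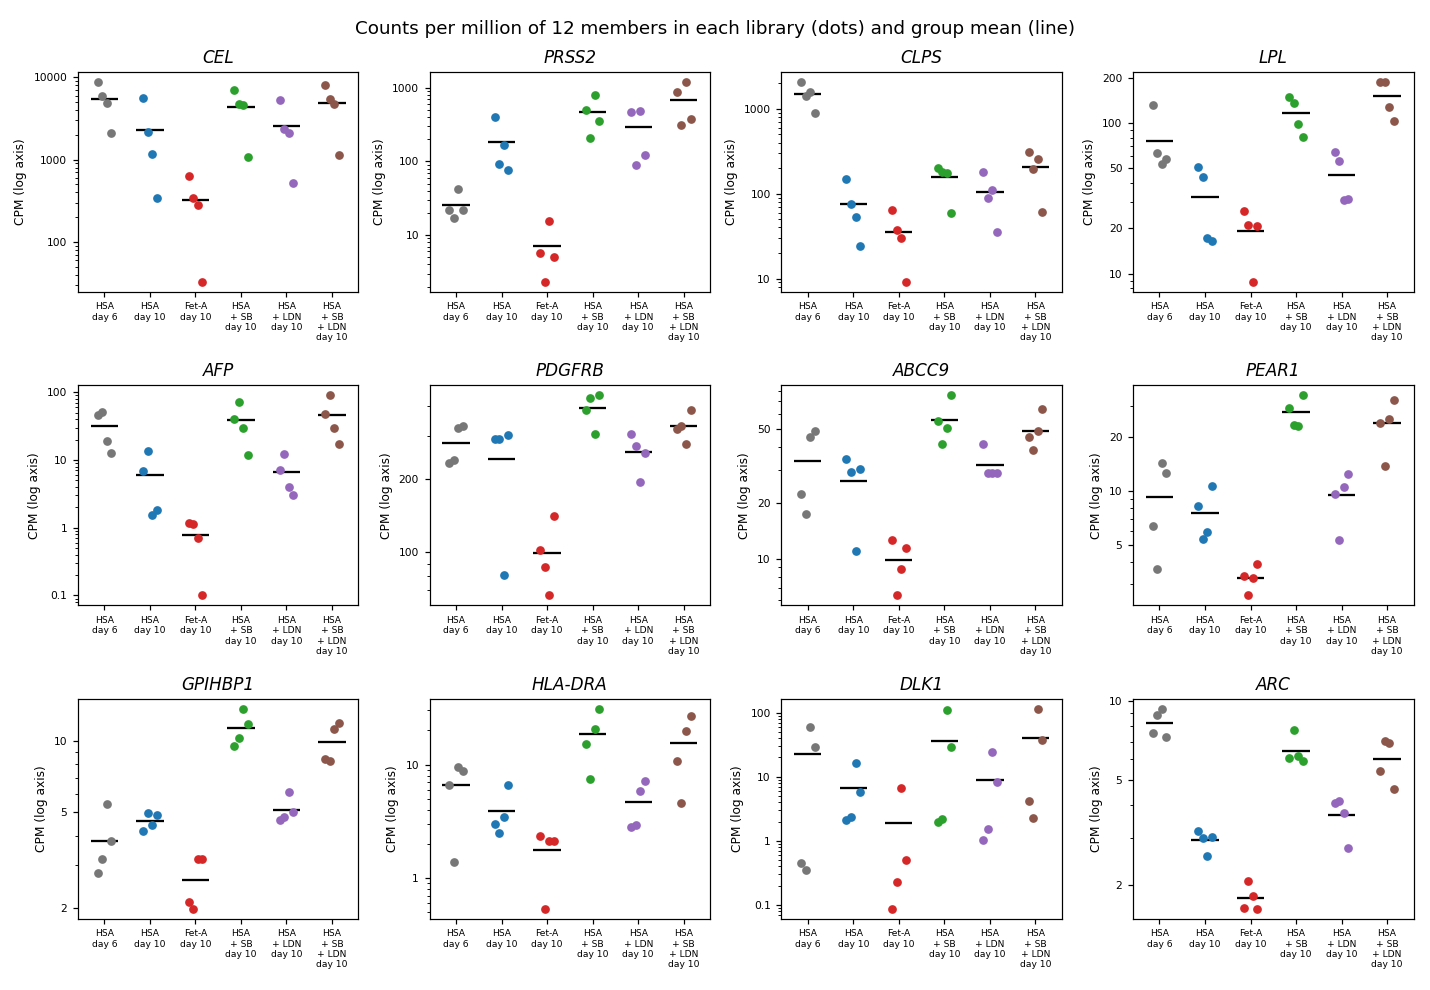
Each panel shows 1 member, with its CPM on a log axis (y) in the 6 groups (x), dots for the 4 libraries of a group and a line for their mean. For CEL the dots of a group spread widely (344.9 to 5534 CPM in HSA/day 10), while for GPIHBP1 the 4 libraries with SB and LDN (8.19 to 11.9 CPM) lie above the 4 with LDN (4.63 to 6.09 CPM).

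The liver and plasma products were AFP, AMBP, FGG, VTN, the complement genes C5, C6 and C7, LIPC, APOD, FCN2 and RNASE4. AFP encodes alpha-fetoprotein, the main plasma protein of fetal liver. AFP stood at 45.5, 50.5, 19.1 and 12.9 CPM in HSA/day 6 and at 6.96, 13.6, 1.53 and 1.83 CPM in HSA/day 10. With fetuin-A, AFP was measured at 1.18, 1.12, 0.701 and 0.101 CPM, and with SB at 40.3, 72.6, 29.3 and 11.8 CPM. AFP had 6.99, 12.2, 3.96 and 3.07 CPM in HSA + LDN/day 10 and 48.4, 89.9, 29.3 and 17.02 CPM in HSA + SB + LDN/day 10. The 4 libraries with SB and LDN were all above the 4 with LDN alone for AFP. The Fet-A/day 10 values were all below those of HSA/day 10, which chose it in part. AFP rose with SB in the presence of LDN by a log2 fold change of 2.84 ± 0.72 (SE), with an adjusted p of 0.0457 in edgeR. The AFP call held with HSA + SB + LDN/day 10 replicate 4 left out and was lost when any 1 of the other 7 libraries of these groups was left out (adjusted p = 0.0595 to 0.152), and its adjusted p ranged from 4.40e-07 to 0.152 over 14 alternative settings. The AFP call was also lost with no filter on low counts (adjusted p = 0.0541) and with only the 2 compared groups fitted (adjusted p = 0.0647).

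C5, a component of terminal complement, had 79.5, 67.8, 34.02 and 23.6 CPM with LDN and 191, 189, 91.2 and 46.6 CPM with SB and LDN, which overlapped. FGG, the fibrinogen gamma chain, was near the lower limit, with 0.675, 2.26, 0.991 and 1.01 and 0.8288, 2.52, 1.53 and 1.42 CPM in the same groups. C7, which like LIPC is named here after its values were seen, had 1.59, 2.87, 3.11 and 4.98 CPM with LDN and 9.12, 8.90, 8.12 and 7.95 CPM with SB and LDN, without overlap but with an adjusted p of 0.259. LIPC, the hepatic lipase, had 28.5, 39.3, 14.9 and 7.41 and 80.1, 107, 46.1 and 26.9 CPM. In FCN2, a lectin of the complement system chosen for this pattern, replicate 4 carried most of the signal of each group, with 5.36, 3.43, 2.48 and 19.2 CPM in HSA + SB + LDN/day 10. Of the 11 members of this role AFP was the only one called by edgeR and by DESeq2, and 7 were called with 3 surrogate variables. All 11 had positive log2 fold changes, with a median of 1.05. Among 15 tested genes of the liver and gut list that were not members, edgeR and DESeq2 each called 0 higher and 1 lower. At an unadjusted p below 0.05, 2 were higher, and the median log2 fold change was 0.07. As a description, 3 of these 15 were past the fetuin-A ratio and 2 past the SB ratio.

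Lipid and metabolite handling was represented by LPL, INSIG1, AQP9, GLS2, SQOR, HSD11B2, SLC16A12, SLC16A6, TREH, FMO1, ANPEP, CNDP1, ABCA9 and the gene of carboxypeptidase M. LPL encodes lipoprotein lipase, which releases fatty acids from plasma triglycerides. LPL stood at 131, 63.7, 53.4 and 57.4 CPM in HSA/day 6 and at 50.8, 43.5, 17.3 and 16.6 CPM in HSA/day 10. With fetuin-A, LPL was measured at 26.1, 20.9, 8.86 and 20.7 CPM, and with SB at 149, 137, 99.3 and 81.01 CPM. LPL had 63.9, 56.04, 30.6 and 31.3 CPM in HSA + LDN/day 10 and 188, 187, 129 and 104 CPM in HSA + SB + LDN/day 10. Each library with SB and LDN was above each with LDN alone for LPL, and the 4 values of HSA + SB/day 10 were above the 4 of HSA/day 10, which chose it in part. LPL rose by a log2 fold change of 1.76 ± 0.41 (SE), with an adjusted p of 0.0326 in edgeR. The LPL call was lost without HSA + SB + LDN/day 10 replicate 1, HSA + LDN/day 10 replicate 2, HSA + SB + LDN/day 10 replicate 2, HSA + LDN/day 10 replicate 3, HSA + SB + LDN/day 10 replicate 3 and HSA + LDN/day 10 replicate 4 (adjusted p = 0.0564 to 0.114), and its adjusted p ranged from 2.17e-05 to 0.114 over 15 alternative settings.

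INSIG1, which holds the sterol sensor of cholesterol synthesis in the endoplasmic reticulum, had 186, 132, 36.2 and 20.6 CPM with LDN and 267, 264, 75.1 and 40.2 CPM with SB and LDN. Replicates 1 and 2 of INSIG1 were several times above replicates 3 and 4 in both groups. AQP9, a channel for glycerol and water, had 321, 303, 142 and 110.1 and 459, 408, 202 and 211 CPM, and ANPEP, the membrane aminopeptidase N, had 106, 105, 79.3 and 36.8 and 266, 313, 206 and 90.1 CPM. SQOR, which oxidises hydrogen sulfide in mitochondria, had 17.02, 16.7, 10.7 and 12.1 and 21.4, 22.1, 14.8 and 13.98 CPM. These 4 genes overlapped between the groups. LPL was the only one of the 14 members of this role that edgeR called, while DESeq2 called 3, and 12 were called with 3 surrogate variables. All 14 had positive log2 fold changes, from 0.38 to 2.56 with a median of 1.11.

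The endothelial members were CDH5, CD93, BCL6B, NRP1, GPIHBP1, GJA4, PEAR1, KLF2, AQP1 and CA4, with a summed level of 368 ± 83.2 CPM in HSA/day 10, 196 ± 73.7 CPM in Fet-A/day 10 and 678 ± 171 CPM in HSA + SB/day 10. Their sum was 385 ± 69.8 CPM in HSA + LDN/day 10 and 602 ± 163 CPM in HSA + SB + LDN/day 10 (SD, n = 4). GPIHBP1 encodes the anchor that holds lipoprotein lipase on the capillary wall. GPIHBP1 stood at 2.80, 3.18, 5.43 and 3.80 CPM in HSA/day 6 and at 4.19, 4.98, 4.44 and 4.87 CPM in HSA/day 10. With fetuin-A, GPIHBP1 was measured at 2.10, 1.98, 3.20 and 3.19 CPM, and with SB at 9.45, 10.2, 13.6 and 11.7 CPM. GPIHBP1 had 4.63, 4.78, 6.09 and 5.03 CPM in HSA + LDN/day 10 and 8.34, 8.19, 11.2 and 11.9 CPM in HSA + SB + LDN/day 10. The 4 values of GPIHBP1 with SB, and with SB and LDN, were all above those of the groups without SB. Of these groups, HSA + SB/day 10, HSA/day 10 and Fet-A/day 10 gave the ratios that chose it. GPIHBP1 rose by a log2 fold change of 0.96 ± 0.19 (SE) in HSA + SB + LDN/day 10 against HSA + LDN/day 10, with an adjusted p of 0.00827 in edgeR. It kept this call in all 15 alternative settings, 8 of them with 1 library left out, with adjusted p from 2.66e-05 to 0.0402.

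PEAR1 encodes a receptor of platelets and endothelial cells. PEAR1 stood at 6.37, 3.66, 14.4 and 12.6 CPM in HSA/day 6 and at 8.24, 5.36, 5.93 and 10.7 CPM in HSA/day 10. With fetuin-A, PEAR1 was measured at 3.33, 2.61, 3.25 and 3.90 CPM, and with SB at 29.2, 23.6, 23.1 and 34.4 CPM. PEAR1 had 9.60, 5.28, 10.5 and 12.4 CPM in HSA + LDN/day 10 and 24.1, 13.8, 25.4 and 32.6 CPM in HSA + SB + LDN/day 10. The groups with and without SB did not overlap at day 10 in PEAR1 where LDN was present or absent. The groups without LDN chose it, so only those with LDN were tested. The log2 fold change of PEAR1 was 1.35 ± 0.33 (SE) with an adjusted p of 0.0403, and it rose. The PEAR1 call held with HSA + SB + LDN/day 10 replicate 2 left out and was lost when any 1 of the other 7 libraries of these groups was left out (adjusted p = 0.0565 to 0.134), and its adjusted p ranged from 1.87e-05 to 0.134 over 15 alternative settings. The PEAR1 call was also lost with only the 2 compared groups fitted (adjusted p = 0.0773).

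AQP1, a water channel of capillaries and ducts, gave a similar order without a call. AQP1 stood at 38.6, 17.7, 26.3 and 29.99 CPM in HSA/day 6 and at 14.2, 14.3, 10.3 and 25.6 CPM in HSA/day 10. With fetuin-A, AQP1 was measured at 4.29, 3.96, 5.26 and 12.4 CPM, and with SB at 37.4, 34.8, 42.8 and 54.4 CPM. AQP1 had 13.4, 13.2, 14.2 and 19.9 CPM in HSA + LDN/day 10 and 35.004, 21.7, 38.8 and 40.5 CPM in HSA + SB + LDN/day 10. All 4 AQP1 values with SB and LDN were above the 4 with LDN, at an adjusted p of 0.0751. CDH5, the cadherin of endothelial junctions, had 120.1, 63.4, 96.8 and 137 CPM with LDN and 143, 79.05, 149 and 223 CPM with SB and LDN, and CD93, a receptor of the same cells, had 107, 63.8, 89.9 and 99.7 and 141, 84.9, 137 and 173 CPM. BCL6B, an endothelial transcription factor gene, had 48.3, 26.01, 44.02 and 56.1 and 85.2, 45.8, 88.6 and 127 CPM, and NRP1, a receptor for semaphorins and vascular growth factor, had 71.6, 64.5, 72.1 and 82.8 and 98.5, 69.3, 99.6 and 120.4 CPM. These last 4 genes overlapped. In each of the 6 groups replicate 2 was the lowest of the 4 libraries for CDH5. Of the 10 endothelial members edgeR called 2 (GPIHBP1 and PEAR1), DESeq2 called 3 and the fit with 3 surrogate variables called 8, and the 10 log2 fold changes were positive with a median of 0.70. Among 11 tested genes of the endothelial list that were not members, KDR, a receptor of vascular growth factor, was the 1 gene called higher (adjusted p = 0.0465), and the median log2 fold change was 0.44. The KDR call held with HSA + SB + LDN/day 10 replicate 2 left out and was lost when any 1 of the other 7 libraries of these groups was left out (adjusted p = 0.0572 to 0.147), and its adjusted p ranged from 5.15e-04 to 0.147 over 15 alternative settings. The KDR call was also lost with no filter on low counts (adjusted p = 0.0568), with at least 10 counts required in every library (adjusted p = 0.0520) and with only the 2 compared groups fitted (adjusted p = 0.130). KDR averaged 45.2 CPM with fetuin-A and 52.3 CPM in HSA/day 10, so it did not reach the fetuin-A ratio. As a description, 1 of the 11 was past the fetuin-A ratio and 4 past the SB ratio, with median log2 ratios of -0.45 and 0.55. The gene past the fetuin-A ratio, PLVAP, which encodes a protein of endothelial fenestrae, had log2 ratios of -0.80 for fetuin-A and -1.05 for SB. PLVAP and SOX18, an endothelial transcription factor gene, had negative log2 fold changes in the comparison with LDN, -0.68 and -0.28 (adjusted p = 0.308 and 0.802), and the other 9 were positive.

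The 12 mural and mesenchymal members were PDGFRB, ABCC9, KCNJ8, HEYL, FHL5, EBF1, LAMC3, SMOC2, COL21A1, WT1, AVPR1A and PTGIS. PDGFRB encodes the platelet-derived growth factor receptor that pericytes and fibroblasts carry. PDGFRB stood at 232, 239.6, 324 and 332 CPM in HSA/day 6 and at 294, 292, 80.9 and 304 CPM in HSA/day 10. With fetuin-A, PDGFRB was measured at 102, 87.5, 66.8 and 141 CPM, and with SB at 387, 429.7, 306 and 442 CPM. PDGFRB had 307, 273, 195 and 257 CPM in HSA + LDN/day 10 and 323, 331, 278 and 387 CPM in HSA + SB + LDN/day 10. In HSA/day 10 replicate 3 was far below the other 3 libraries for PDGFRB, and it was the lowest of the group for 10 of the 12 members of this role, whose sum was 369.6, 408, 113 and 392 CPM there. Without that library 9 of the 12 met the rule, and PDGFRB did not, since its log2 ratios became -1.57 for fetuin-A and 0.40 for SB, from -1.28 and 0.69 with all 4 libraries. The low level was not limited to the members: the whole mesenchymal list, led by SPARC, COL3A1 and COL1A1, summed to 11407, 12555, 3774 and 14768 CPM in HSA/day 10, and the list of genes that respond to SMAD2 and SMAD3, which shares collagen genes with it, to 8841, 10188, 3143 and 10099 CPM. The fetuin-A and SB ratios of all members rest in part on this library, and what set it apart was not tested. PDGFRB had a log2 fold change of 0.37 ± 0.28 (SE) with an adjusted p of 0.633 in HSA + SB + LDN/day 10 against HSA + LDN/day 10, with overlap.

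EBF1 encodes a transcription factor of stromal cells. EBF1 stood at 3.67, 1.92, 5.75 and 6.60 CPM in HSA/day 6 and at 2.87, 2.39, 2.42 and 5.29 CPM in HSA/day 10. With fetuin-A, EBF1 was measured at 1.31, 1.30, 1.90 and 2.53 CPM, and with SB at 13.5, 9.21, 13.2 and 18.94 CPM. EBF1 had 4.29, 2.77, 4.44 and 5.19 CPM in HSA + LDN/day 10 and 10.2, 6.47, 11.1 and 15.9 CPM in HSA + SB + LDN/day 10. The 4 EBF1 values with SB and LDN were above the 4 with LDN alone, although the lowest (6.47 CPM) was close to the highest of the other group (5.19 CPM). EBF1 rose by a log2 fold change of 1.40 ± 0.34 (SE), with an adjusted p of 0.0396 in edgeR. The EBF1 call held with HSA + SB + LDN/day 10 replicate 2 left out and was lost when any 1 of the other 7 libraries of these groups was left out (adjusted p = 0.0714 to 0.133), and its adjusted p ranged from 2.22e-06 to 0.133 over 15 alternative settings. The EBF1 call was also lost with only the 2 compared groups fitted (adjusted p = 0.0576). FHL5 encodes a LIM-domain cofactor of transcription found in smooth muscle. FHL5 had 4.39, 3.12, 3.68 and 4.61 CPM with LDN and 6.68, 4.997, 6.64 and 10.9 CPM with SB and LDN, and 2.45, 2.02, 2.20 and 2.33 CPM in Fet-A/day 10. The 2 LDN groups did not overlap, and FHL5 rose by 0.90 ± 0.23 (SE) on the log2 scale with an adjusted p of 0.0464. The FHL5 call held with HSA + SB + LDN/day 10 replicate 2 left out and was lost when any 1 of the other 7 libraries of these groups was left out (adjusted p = 0.0783 to 0.166), and its adjusted p ranged from 0.00130 to 0.166 over 15 alternative settings. The FHL5 call was also lost with no filter on low counts (adjusted p = 0.0599), with at least 10 counts required in every library (adjusted p = 0.0503) and with only the 2 compared groups fitted (adjusted p = 0.119).

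ABCC9 and KCNJ8, named here after their values were seen, encode the subunits of a potassium channel of pericytes and are neighbours in the genome. ABCC9 stood at 22.2, 17.4, 45.3 and 48.4 CPM in HSA/day 6 and at 34.3, 29.1, 11.04 and 30.3 CPM in HSA/day 10. With fetuin-A, ABCC9 was measured at 12.6, 6.39, 8.81 and 11.4 CPM, and with SB at 55.04, 41.2, 50.5 and 75.4 CPM. ABCC9 had 41.4, 28.7, 29.02 and 29.02 CPM in HSA + LDN/day 10 and 44.998, 38.5, 48.3 and 63.4 CPM in HSA + SB + LDN/day 10. The 4 Fet-A/day 10 values of ABCC9 overlapped HSA/day 10 only in its replicate 3. KCNJ8 had 13.2, 12.98, 8.73 and 9.37 CPM with LDN and 19.5, 15.1, 16.04 and 21.5 CPM with SB and LDN, without overlap, at an adjusted p of 0.111. Across the role edgeR called 2 of 12 members, DESeq2 called 4, the fit with 3 surrogate variables called 5, and the 12 log2 fold changes were positive with a median of 0.67. Of 18 tested mesenchymal genes that were not members 16 were past the fetuin-A ratio and 0 past the SB ratio, which is a description since those libraries chose the members. In HSA + SB + LDN/day 10 against HSA + LDN/day 10, the median of these 18 was -0.60, with 1 gene, COL5A1, called lower (adjusted p = 0.0319). The COL5A1 call held with HSA + LDN/day 10 replicate 3 left out and was lost when any 1 of the other 7 libraries of these groups was left out (adjusted p = 0.0507 to 0.105), and its adjusted p ranged from 3.07e-04 to 0.105 over 15 alternative settings. The count called higher was 0 in edgeR, 0 at an unadjusted p below 0.05 and 0 in DESeq2. COL1A1 averaged 1323 CPM with LDN and 662 CPM with SB and LDN.

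**Figure D3:**
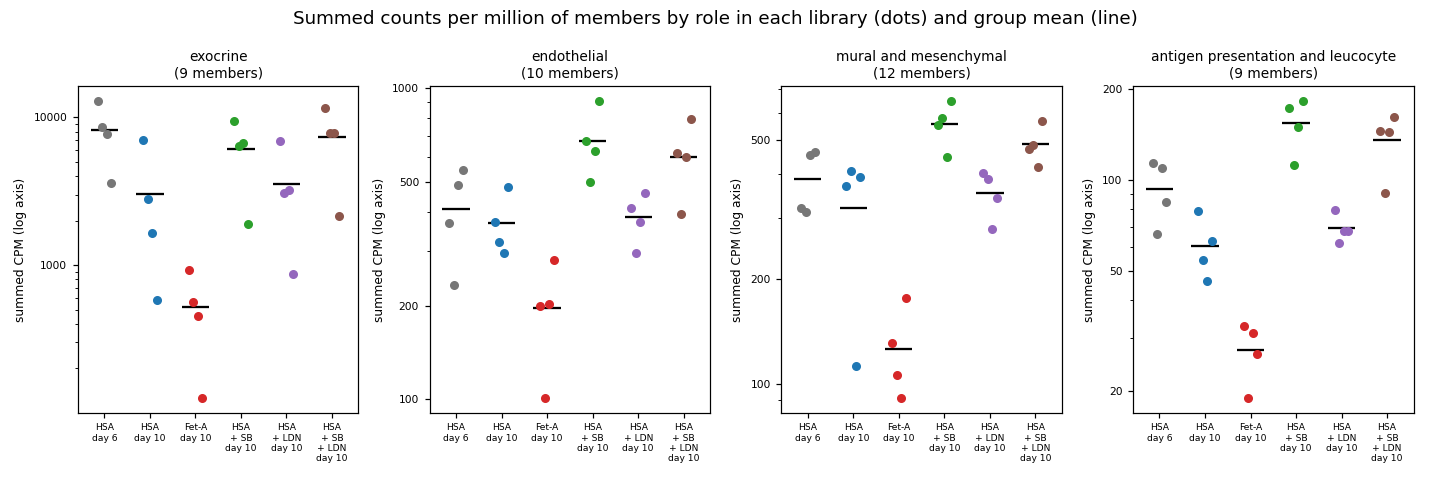
Summed CPM (y, log axis) of the members of 4 roles in the 6 groups (x), with dots for the 4 libraries of each group and a line for their mean. In the mural and mesenchymal panel 1 HSA/day 10 library lies at 113 CPM, below the other 3 of its group, and the Fet-A/day 10 mean is the lowest line of each panel.

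Antigen presentation and leucocyte members were CD74, HLA-DRA, SLA-DQB1, IRF8, FGR, LTC4S, ACP5, IL34 and ARHGDIB. HLA-DRA and CD74, chosen after their values were seen, encode the alpha chain of a class II histocompatibility molecule and its chaperone, and class II genes belong to a family whose similar copies make read assignment uncertain. HLA-DRA stood at 6.56, 1.39, 9.60 and 8.86 CPM in HSA/day 6 and at 3.004, 2.49, 3.46 and 6.55 CPM in HSA/day 10. With fetuin-A, HLA-DRA was measured at 2.37, 0.540, 2.10 and 2.13 CPM, and with SB at 15.2, 7.42, 20.3 and 30.9 CPM. HLA-DRA had 2.80, 2.92, 5.90 and 7.20 CPM in HSA + LDN/day 10 and 10.8, 4.62, 19.8 and 26.6 CPM in HSA + SB + LDN/day 10. The HLA-DRA values of HSA + SB/day 10 lay above those of HSA/day 10 without overlap, which chose it in part, while the groups with LDN overlapped (adjusted p = 0.146). CD74 had 15.9, 14.7, 17.7 and 19.9 CPM with LDN and 32.7, 16.1, 39.3 and 48.02 CPM with SB and LDN. Of the 9 members edgeR called 0, 6 had an unadjusted p below 0.05, DESeq2 called 2 and the fit with 3 surrogate variables called 7. The 9 log2 fold changes were positive, from 0.39 to 1.72 with a median of 1.01. As a description, among 15 tested genes of the immune list, which held 0 members, 6 were past the fetuin-A ratio and 0 past the SB ratio. Their median log2 ratios were -0.34 for fetuin-A and 0.17 for SB. In HSA + SB + LDN/day 10 against HSA + LDN/day 10 edgeR called 0 of the 15, with 0 higher and 1 lower at an unadjusted p below 0.05, and DESeq2 called 0. PTPRC, the pan-leucocyte marker, averaged 4.63 and 4.81 CPM in these groups.

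Of the 39 named members outside the roles, 4 rose with SB in the presence of LDN. CPAMD8 encodes a protein of the complement and macroglobulin family. CPAMD8 stood at 5.82, 3.53, 8.02 and 9.15 CPM in HSA/day 6 and at 6.92, 5.17, 1.93 and 2.41 CPM in HSA/day 10. With fetuin-A, CPAMD8 was measured at 3.29, 0.630, 2.10 and 1.72 CPM, and with SB at 26.3, 20.7, 16.2 and 21.4 CPM. CPAMD8 had 8.92, 4.02, 6.79 and 2.86 CPM in HSA + LDN/day 10 and 23.4, 17.5, 21.4 and 23.8 CPM in HSA + SB + LDN/day 10. The 4 CPAMD8 values with SB and LDN were above the 4 with LDN alone. In that comparison CPAMD8 rose by 1.94 ± 0.41 (SE) on the log2 scale (adjusted p = 0.0169 in edgeR). The values of HSA + SB/day 10 were also above those of HSA/day 10, which chose it in part. The CPAMD8 call was lost without HSA + SB + LDN/day 10 replicate 1, HSA + LDN/day 10 replicate 2 and HSA + LDN/day 10 replicate 4 (adjusted p = 0.0501 to 0.0657), and its adjusted p ranged from 2.00e-04 to 0.0657 over 15 alternative settings. PRND encodes doppel, a relative of the prion protein that is found in testis and in developing vessels. PRND stood at 0.504, 0.261, 2.04 and 1.01 CPM in HSA/day 6 and at 6.28, 1.77, 4.89 and 4.71 CPM in HSA/day 10. With fetuin-A, PRND was measured at 1.93, 0.225, 3.90 and 1.77 CPM, and with SB at 34.995, 16.3, 44.7 and 44.2 CPM. PRND had 4.73, 1.76, 7.69 and 5.67 CPM in HSA + LDN/day 10 and 24.9, 9.04, 24.5 and 36.02 CPM in HSA + SB + LDN/day 10. The immature clusters held little PRND and the groups with SB held the most, and the 2 groups with LDN did not overlap. PRND rose by 2.26 ± 0.57 (SE) on the log2 scale, with an adjusted p of 0.0457. The PRND call held with HSA + SB + LDN/day 10 replicate 2 left out and was lost when any 1 of the other 7 libraries of these groups was left out (adjusted p = 0.0560 to 0.140), and its adjusted p ranged from 8.63e-07 to 0.140 over 14 alternative settings. The PRND call was also lost with no filter on low counts (adjusted p = 0.0541) and with only the 2 compared groups fitted (adjusted p = 0.0706).

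ARC encodes an activity-regulated protein of synapses. ARC stood at 7.52, 8.84, 9.32 and 7.32 CPM in HSA/day 6 and at 3.19, 3.01, 2.56 and 3.04 CPM in HSA/day 10. With fetuin-A, ARC was measured at 1.62, 2.07, 1.80 and 1.62 CPM, and with SB at 6.08, 7.73, 6.15 and 5.92 CPM. ARC had 4.10, 4.18, 3.73 and 2.75 CPM in HSA + LDN/day 10 and 5.41, 7.04, 6.92 and 4.61 CPM in HSA + SB + LDN/day 10. The libraries with SB and LDN were above those with LDN, the nearest values being 4.61 and 4.18 CPM, and ARC rose by 0.72 ± 0.16 (SE) on the log2 scale (adjusted p = 0.0239). The ARC call was lost without HSA + SB + LDN/day 10 replicate 2, HSA + LDN/day 10 replicate 3, HSA + SB + LDN/day 10 replicate 3 and HSA + LDN/day 10 replicate 4 (adjusted p = 0.0514 to 0.0935), and its adjusted p ranged from 0.00126 to 0.126 over 15 alternative settings. The ARC call was also lost with only the 2 compared groups fitted (adjusted p = 0.126). BCAS1 encodes a protein known from myelinating glia. BCAS1 stood at 8.90, 5.62, 3.29 and 4.91 CPM in HSA/day 6 and at 2.23, 3.16, 2.11 and 2.72 CPM in HSA/day 10. With fetuin-A, BCAS1 was measured at 1.14, 1.12, 1.30 and 0.810 CPM, and with SB at 12.3, 10.2, 6.29 and 6.61 CPM. BCAS1 had 3.28, 3.97, 2.93 and 2.54 CPM in HSA + LDN/day 10 and 10.8, 9.52, 5.30 and 6.18 CPM in HSA + SB + LDN/day 10. The 4 values of BCAS1 with SB and LDN were above the 4 with LDN, and it rose by 1.34 ± 0.30 (SE) on the log2 scale (adjusted p = 0.0242). The BCAS1 call was lost without HSA + LDN/day 10 replicate 1, HSA + SB + LDN/day 10 replicate 1, HSA + SB + LDN/day 10 replicate 2, HSA + LDN/day 10 replicate 3 and HSA + LDN/day 10 replicate 4 (adjusted p = 0.0666 to 0.109), and its adjusted p ranged from 1.34e-04 to 0.109 over 15 alternative settings. The BCAS1 call was also lost with only the 2 compared groups fitted (adjusted p = 0.0553).

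DLK1 encodes a delta-like transmembrane protein of immature endocrine and stromal cells. DLK1 stood at 0.459, 0.348, 60.4 and 28.9 CPM in HSA/day 6 and at 2.14, 2.34, 16.2 and 5.71 CPM in HSA/day 10. With fetuin-A, DLK1 was measured at 0.0876, 0.225, 6.71 and 0.506 CPM, and with SB at 1.97, 2.20, 112 and 28.8 CPM. DLK1 had 1.01, 1.51, 24.6 and 8.16 CPM in HSA + LDN/day 10 and 4.24, 2.28, 114 and 37.6 CPM in HSA + SB + LDN/day 10. Replicates 3 and 4 carried most of the DLK1 counts in each group, and replicates 1 and 2 were at or below 4.24 CPM in all 6. Its log2 fold change was 2.17 ± 1.49 (SE) with an adjusted p of 0.576. Among 9 tested genes of the endocrine progenitor list that were not members, edgeR called 0 higher and 1 lower in this comparison. Their median log2 fold change was -0.30. SMOC1, which encodes a secreted calcium-binding matrix protein, had 604, 514, 325 and 153 CPM with LDN and 994, 936, 526 and 247 CPM with SB and LDN, and ADGRB1, an adhesion receptor gene, had 99.2, 40.95, 63.1 and 20.4 and 215, 107, 157 and 60.7 CPM. NIBAN1 had 46.9, 44.1, 50.1 and 71.5 and 74.2, 61.2, 83.3 and 115 CPM, and HES4, a transcriptional repressor gene of the HES family, had 28.6, 20.1, 23.5 and 29.2 and 40.4, 26.03, 34.1 and 36.2 CPM. These 4 overlapped between the groups. C1QTNF7, of the adiponectin family, had 0.627, 1.91, 0.802 and 1.06 and 0.58502, 1.38, 0.668 and 0.912 CPM and a log2 fold change of -0.29 ± 0.55 (SE), the lowest of the 130 members.

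The other named members outside the roles were ANO2, SH2B3, MAP6D1, FBLN7, TMPRSS4, STXBP6, ADCY3, BVES, FAM111A, TMEM144, DEPP1, HIC1, ADCYAP1R1, KIRREL2, MATN4, RAB27B, GUCA2B, SLC24A2, RCSD1, NPHS1, CSGALNACT1, SSUH2, ADAM22, TMEFF2, LRRC17, BMP5, MEOX2, NHSL2 and PPP1R14C. None of these was called in HSA + SB + LDN/day 10 against HSA + LDN/day 10 by edgeR, and their log2 fold changes were all positive, from 0.02 (HIC1) to 2.11 (KIRREL2). Over all 39 named members outside the roles the median was 0.80, with 4 called by edgeR, 8 by DESeq2 and 32 with 3 surrogate variables. KIRREL2 and NPHS1, which encode partner adhesion proteins and were chosen after their values were seen, are neighbours in the genome. KIRREL2 had 37.3, 12.97, 19.9 and 8.28 CPM in HSA/day 6 and 6.83, 2.39, 1.30 and 0.314 CPM in HSA/day 10, and NPHS1 had 12.9, 7.10, 5.52 and 2.41 and 4.46, 3.16, 1.89 and 0.419 CPM. Both had their highest value in replicate 1 of each group and their lowest in replicate 4.

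For 26 members no symbol was paired with the identifier, and they took 2.23% ± 1.07 of the counts of HSA/day 6 and 0.416% ± 0.265 of those of HSA/day 10 (SD, n = 4), more than the 104 named members together in HSA/day 6. Those described here were chosen after their values were seen. ENSSSCG00000017181 had 7.38, 8.20, 9.96 and 8.21 CPM with LDN and 27.5, 24.6, 35.1 and 49.9 CPM with SB and LDN, and ENSSSCG00000039847 had 15.1, 13.2, 16.3 and 16.8 and 29.6, 32.2, 46.3 and 54.1 CPM. Neither overlapped, and both rose, by 2.03 ± 0.45 (SE) (adjusted p = 0.0239) and 1.41 ± 0.34 (SE) (adjusted p = 0.0357) on the log2 scale. The ENSSSCG00000017181 call was lost without HSA + LDN/day 10 replicate 1, HSA + LDN/day 10 replicate 2, HSA + SB + LDN/day 10 replicate 3, HSA + LDN/day 10 replicate 4 and HSA + SB + LDN/day 10 replicate 4 (adjusted p = 0.0564 to 0.0804), and its adjusted p ranged from 5.10e-04 to 0.0804 over 15 alternative settings. The ENSSSCG00000039847 call was lost without HSA + LDN/day 10 replicate 1, HSA + LDN/day 10 replicate 2, HSA + LDN/day 10 replicate 3, HSA + SB + LDN/day 10 replicate 3, HSA + LDN/day 10 replicate 4 and HSA + SB + LDN/day 10 replicate 4 (adjusted p = 0.0749 to 0.108), and its adjusted p ranged from 9.03e-04 to 0.108 over 15 alternative settings. ENSSSCG00000002980 had 1.69, 11.4, 1.70 and 1.27 and 1.07, 8.09, 3.01 and 2.63 CPM and was, with C1QTNF7, one of the 2 members with a negative log2 fold change (-0.09). ENSSSCG00000023012 had 13948, 10223, 6001 and 5407 CPM in HSA/day 6 and 1517, 919, 383 and 273 CPM in HSA/day 10, without overlap. The median log2 fold change of the 26 was 1.215, with 2 called by edgeR, 6 by DESeq2 and 22 with 3 surrogate variables.

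The comparison of HSA + LDN/day 10 with HSA/day 6 followed the members over time in culture in libraries outside the rule's ratios, and time and LDN cannot be told apart in it. By edgeR 30 members fell (23.1% of members beside 20.2% of all genes) and 7 rose (5.38% beside 20.1%). In this fit the share that fell was near that of all genes, and the share that rose was below it. The median log2 fold change was -0.42, where that of all genes was -0.01, and 91 members were negative. With 3 surrogate variables 66 members fell (50.8% of members beside 26.4% of all genes) and 12 rose (9.23% beside 26.3%), so the share that fell was no longer near that of all genes. In the main fit 10 of the 53 members that met the rule in all 12 selections fell and 3 rose. Over all genes 20.2% fell and 20.1% rose in that fit, so the share of the 53 that fell was near that of all genes. The number called in both directions together moved between 26 and 41 with 1 library left out.

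The time comparison separated members of the same role. Among the exocrine members, CLPS fell by a log2 fold change of -3.94 ± 0.67 (SE) (adjusted p = 1.42e-04) and PRSS2 rose by 3.45 ± 0.71 (SE) (adjusted p = 7.52e-04). AFP fell, with a log2 fold change of -2.40 ± 0.71 (SE) (adjusted p = 0.0112), and 4 of the 11 liver and plasma products fell in all (AFP, RNASE4, C6 and VTN) while APOD rose. Over all genes tested 20.2% fell and 20.1% rose. Among 15 tested genes of the liver and gut list that were not members, 5 rose and 0 fell, with a median log2 fold change of 0.28. SQOR fell by -1.23 ± 0.30 (SE) on the log2 scale (adjusted p = 0.00291), as did GLS2 and HSD11B2 of the same role, and ARC fell by -1.24 ± 0.16 (SE) (adjusted p = 1.10e-05). HES4 and FHL5 fell as well, with log2 fold changes of -0.79 and -0.89 (adjusted p = 6.14e-04 and 0.00428), and so did HEYL, a target of Notch signalling. PRND rose by 2.31 ± 0.66 (SE) (adjusted p = 0.00857). In the leucocyte role IRF8, LTC4S and IL34 fell. Of the 15 tested genes of the immune list, which held 0 members, 6 rose and 0 fell, with a median log2 fold change of 0.91. In the endothelial role AQP1 fell by -0.99 ± 0.33 (SE) (adjusted p = 0.0206). The AQP1 call was lost without HSA/day 6 replicate 1, HSA + LDN/day 10 replicate 1 and HSA + LDN/day 10 replicate 2 (adjusted p = 0.0502 to 0.0977, from 4.62e-04 to 0.0977 over 15 alternative settings). BCAS1 fell by -0.94 ± 0.30 (SE) (adjusted p = 0.0179), a call lost without HSA/day 6 replicate 1 and HSA + LDN/day 10 replicate 4 (adjusted p = 0.0574 to 0.125, from 5.31e-04 to 0.125 over 15 alternative settings). In this comparison the BCAS1 call was also lost with only the 2 compared groups fitted (adjusted p = 0.0503).

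Gene lists of pathways and cell types placed few members. The acinar list held 4 (CEL, CLPS, PRSS2 and RBPJL), the liver and gut list 2 (AFP and FGG), and the mesenchymal, endothelial, ductal and endocrine progenitor lists 1 each (PDGFRB, CDH5, AQP1 and DLK1). The other 12 lists held 0 members. Of 27 tested genes that respond to SMAD2 and SMAD3, none of them a member, 10 fell and 1 (MYC) rose in HSA + SB + LDN/day 10 against HSA + LDN/day 10, with a median log2 fold change of -0.72. The MYC call was lost without HSA + SB + LDN/day 10 replicate 1, HSA + LDN/day 10 replicate 2, HSA + SB + LDN/day 10 replicate 2, HSA + LDN/day 10 replicate 4 and HSA + SB + LDN/day 10 replicate 4 (adjusted p = 0.0530 to 0.0783), and its adjusted p ranged from 0.00185 to 0.0783 over 15 alternative settings. SMAD7, the inhibitory SMAD gene of this list, averaged 12.9 CPM with LDN and 2.44 CPM with SB and LDN. Among 8 tested acinar genes that were not members edgeR called 0, with 3 higher at an unadjusted p below 0.05, and DESeq2 called 0, while 7 were positive with a median of 0.81. As a description, 2 of these 8 were past the fetuin-A ratio and 4 past the SB ratio (PTF1A, PNLIPRP1, BHLHA15 and GP2), with median log2 ratios of -0.21 for fetuin-A and 0.61 for SB. CPA1, a carboxypeptidase gene, had log2 ratios of -2.20 for fetuin-A and 0.43 for SB, whereas PTF1A, which encodes an acinar transcription factor, had 0.05 and 0.79. Also as a description, 18 of 22 beta cell genes and 32 of 34 genes of mitosis were past the fetuin-A ratio and 0 of either list past the SB ratio, which kept them out of the members. In the comparison with LDN edgeR and DESeq2 called 0 genes of these 2 lists, with 1 beta cell gene and 3 mitosis genes at an unadjusted p below 0.05.

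Some members lie next to each other. In the order of genes in the pig RefSeq table, which lists 100 of the named members, 9 pairs stood within 5 positions. ABCC9 and KCNJ8, AQP9 and LIPC, KIRREL2 and NPHS1, and MATN4 and RBPJL had 0 genes between them. ADCYAP1R1 and AQP1, ADGRB1 and ARC, and ARHGDIB and ERP27 had 1, and C6 and C7 and RNASE1 and RNASE4 had 2. Reads shared between neighbours or similar copies, such as the 2 ribonucleases, could not be examined in the count table.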

How the data were processed

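RNA of 24 libraries was sequenced after poly-A selection with a strand-specific kit as 75 bp single reads, and 6 libraries were listed as 2 runs. The authors deposited raw counts per gene in 1 column per library, and how runs were joined is not given in the sources used here. The submitters' processing notes name FastQC 0.11.8, Trim Galore 0.5, STAR 2.6.1, Picard, featureCounts 1.6.2 and DESeq2 1.22.1. The genome build and the treatment of reads shared between genes are not given in the sources used here. Symbols were paired with 14857 of 25880 identifiers, and the RefSeq assembly Sscrofa11.1 served only for names and neighbours.

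Groups came from the labels. Genes were filtered with filterByExpr, scaled by TMM and tested with edgeR 4.0.16 (quasi-likelihood, R 4.3.3) in 1 fit over all 24 libraries, with Benjamini-Hochberg adjustment over 14842 genes and a call at an adjusted p below 0.05. Comparisons that shared libraries with the ratios of the selection were not tested. The minimum level drew on the means of all 6 groups, those of the tested comparisons included. Members and lists were chosen with earlier results of these data known, and roles were assigned by hand after the members were seen. Named genes were the 20 named members with the highest mean CPM, the 10 with the smallest p in HSA + SB + LDN/day 10 against HSA + LDN/day 10, up to 5 members of each list, and the genes nearest to the thresholds. Members listed under a role or as called in a comparison are named to account for them.

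Alternatives were DESeq2 1.42.0, other scalings and filters, 3 surrogate variables (sva 3.50.0), a fit of the compared groups alone, other selection settings and leaving out each library. Median depth was 20924473 counts per library. The 36 pairs of libraries of the same group differed beyond sampling noise (Spearman rho 0.980 to 0.988), so each was counted as 1 replicate. The labels do not say which libraries share a preparation, and p-values measure the spread between these libraries. The code was tested on simulated data.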

Additional observations from a re-analysis of the deposited data

Results flagged for a closer look

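Of 270 groups of 4 libraries examined for a value far from the other 3, 8 stood apart, where chance gives about 1 in 20 groups (13.5 of 270), so as a whole these are no more than chance gives. PDGFRB in HSA/day 10 was 80.9 CPM in replicate 3, beside 292 to 304 CPM in the other 3 libraries, and the summed mural and mesenchymal members were 113 CPM in the same library, beside 369.6 to 408 CPM. LPL in HSA/day 6 was 131 CPM in replicate 1 (others 53.4 to 63.7 CPM). ARC in HSA + SB/day 10 was 7.73 CPM in replicate 2 (others 5.92 to 6.15 CPM), and EBF1 in HSA/day 10 was 5.29 CPM in replicate 4 (others 2.39 to 2.87 CPM). AQP1 was 12.4 CPM in replicate 4 of Fet-A/day 10 (others 3.96 to 5.26 CPM) and 19.9 CPM in replicate 4 of HSA + LDN/day 10 (others 13.2 to 14.2 CPM). DLK1 in Fet-A/day 10 was 6.71 CPM in replicate 3 (others 0.0876 to 0.506 CPM). The causes were not tested.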

How the results depend on the processing

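The number of members was 76 with 2 CPM added to the means and 35 with a log2 ratio of 1, both stricter by construction, and 115 to 148 with 1 library left out. In HSA + SB + LDN/day 10 against HSA + LDN/day 10 the members called numbered 27 with DESeq2, 6 with the compared groups alone, which leaves fewer samples, and 102 with 3 surrogate variables. They numbered 1 to 10 with 1 library left out, and 7 among the 53 members that met the rule in all 12 selections, an alternative chosen after seeing the data. The median log2 fold change of the members stayed between 0.83 and 1.12 with 1 library left out. In HSA + LDN/day 10 against HSA/day 6 the members called numbered 78 with 3 surrogate variables, 26 to 41 with 1 library left out and 13 among the same 53 members, where fewer genes were counted. Of 681 values of named members under an alternative, 586 kept their direction and side of the threshold, 70 lost a call, 24 gained one (22 of them with 3 surrogate variables) and 1 changed sign: C1QTNF7 in HSA + SB + LDN/day 10 against HSA + LDN/day 10 was 0.11 without HSA + LDN/day 10 replicate 2, from -0.29, and lay between -0.59 and 0.11 with 1 library left out. Where no construction is named, the cause was not tested. No other scaling moved the median of all genes by over 0.1 on the log2 scale. No paired analysis was run, because the labels do not tie libraries to the 4 preparations and the replicate numbers follow accession order only. Libraries of the same number shared extremes, CEL being highest in replicate 1 and lowest in replicate 4 of each of the 6 groups. Whether they share a preparation was not tested. In HSA + SB + LDN/day 10, CEL was 8084, 5485, 4723 and 1125 CPM in replicates 1 to 4. Under the same numbers it was 5236, 2341, 2111 and 520.3 CPM in HSA + LDN/day 10, lower each time. No fit blocked on these numbers was run, so its calls are not known. For members near 1 CPM, the depth limits the precision.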
